A study of Mus musculus with 6 samples.

Results

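The genes described here encode the granule proteins of eosinophils and the specific chain of their interleukin-5 receptor. They were chosen by name as 8 rows of a table of 43346 genes: Prg2, Prg3, Epx, Ear1, Ear2, Ear6, Ear10 and Il5ra. RNA was sequenced from the cut-out distal piece of femurs of C57BL/6 mice, an inbred laboratory strain, aged 4 months. In every animal the right femur alone was treated on day 0 with a single image-guided X-ray exposure of 24 Gy (gray, the unit of absorbed dose), given at 6.6 Gy per minute to a 5 mm stretch of the distal metaphysis, the marrow-rich end of the shaft near the growth plate. The left femur of the same animals was not targeted, so it is the opposite leg of a radiated mouse and not the femur of an untreated mouse. Both femurs were taken on day 21, ahead of bone loss seen at day 28, which gave 3 radiated (R-1, R-2 and R-3) and 3 non-radiated (NR-1, NR-2 and NR-3) libraries. The labels do not say whether a library is 1 animal, and p-values measure the spread between these libraries.

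Eosinophils are granulocytes that mature in the bone marrow under the cytokine interleukin-5. As they mature they fill large granules with cationic proteins: major basic protein (Prg2) and its homologue (Prg3), eosinophil peroxidase (Epx) and the eosinophil-associated ribonucleases (the Ear family). The transcription factors GATA1 and C/EBP epsilon are needed for this lineage, and transcripts for granule proteins are made mainly in immature cells of the marrow, so their abundance in a marrow sample follows the precursors as well as the mature cells.

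The Ear genes are near copies of one another, and this bears on how their counts can be read. In the GENCODE M21 transcripts (build GRCm38) the coding sequences of Ear1 and Ear2 were identical at 95.1% of aligned positions, those of Ear2 and Ear10 at 97% and those of Ear1 and Ear6 at 87.4%. The first 90 coding bases of the 4 genes are shown to make this visible, with capitals where a base differs from Ear1:
Ear1: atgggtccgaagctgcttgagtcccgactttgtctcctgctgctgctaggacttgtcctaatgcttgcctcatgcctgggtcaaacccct
Ear2: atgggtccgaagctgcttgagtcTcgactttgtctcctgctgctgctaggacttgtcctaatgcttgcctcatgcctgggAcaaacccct
Ear6: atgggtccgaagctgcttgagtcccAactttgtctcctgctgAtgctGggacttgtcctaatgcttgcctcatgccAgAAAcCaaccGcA
Ear10: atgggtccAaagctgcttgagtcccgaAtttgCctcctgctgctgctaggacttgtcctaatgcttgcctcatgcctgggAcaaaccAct
In this stretch Ear2 differs from Ear1 at 2 bases, Ear10 at 5 and Ear6 at 10. Of all windows of 50 bases in the Ear1 transcripts, 57.4% also occur in a transcript of another gene, among them the pseudogene Ear-ps9 and Ear2. The share is 41.5% for Ear2, 39.9% for Ear10 and 0.954% for Ear6, and it is 23.9% for Ear1 and 13.9% for Ear2 with windows of 100 bases. None of the 50-base windows of Prg2, Prg3 or Epx occurs elsewhere. How the authors' counting treated reads that fit several genes is not given in the sources used here, so the split between Ear1, Ear2 and Ear10 is uncertain, while Ear6, Prg2, Prg3 and Epx are little affected.

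Promoter windows of 300 bases (250 before the annotated start and 50 after it, RefSeq, GRCm38.p6) were found for 7 of the 8 genes, Prg2 being the one with no entry. The windows of Prg3 (chr2:84987965-84988264, plus strand), Epx (chr11:87875487-87875786, minus strand), Ear1 (chr14:43819590-43819889, minus strand) and Il5ra (chr6:106748988-106749287, minus strand) are printed because Epx and Ear1 were called lower in radiated femur and Prg3 and Il5ra were not. Prg3 is not an unchanged contrast, since its log2 fold change was -0.52 (edgeR adjusted p 0.0781) beside -0.55 for Epx. Capitals mark GATAA on either strand, the core that GATA factors bind:
Prg3: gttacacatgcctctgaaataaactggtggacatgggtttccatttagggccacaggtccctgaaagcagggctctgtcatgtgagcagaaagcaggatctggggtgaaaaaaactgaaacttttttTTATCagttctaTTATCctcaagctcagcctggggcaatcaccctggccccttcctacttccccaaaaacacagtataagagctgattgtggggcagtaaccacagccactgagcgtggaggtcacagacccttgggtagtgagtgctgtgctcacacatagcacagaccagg
Epx: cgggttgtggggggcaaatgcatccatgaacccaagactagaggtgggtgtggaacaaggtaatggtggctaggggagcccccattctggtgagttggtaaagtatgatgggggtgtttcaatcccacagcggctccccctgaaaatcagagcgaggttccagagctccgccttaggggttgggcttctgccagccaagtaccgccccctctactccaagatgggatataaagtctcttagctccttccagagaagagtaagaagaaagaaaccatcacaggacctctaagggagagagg
Ear1: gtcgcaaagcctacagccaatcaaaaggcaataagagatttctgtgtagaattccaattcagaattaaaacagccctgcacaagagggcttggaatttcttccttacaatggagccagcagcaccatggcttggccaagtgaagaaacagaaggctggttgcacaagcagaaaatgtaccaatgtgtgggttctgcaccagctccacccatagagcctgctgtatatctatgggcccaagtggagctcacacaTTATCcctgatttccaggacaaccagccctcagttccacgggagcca
Il5ra: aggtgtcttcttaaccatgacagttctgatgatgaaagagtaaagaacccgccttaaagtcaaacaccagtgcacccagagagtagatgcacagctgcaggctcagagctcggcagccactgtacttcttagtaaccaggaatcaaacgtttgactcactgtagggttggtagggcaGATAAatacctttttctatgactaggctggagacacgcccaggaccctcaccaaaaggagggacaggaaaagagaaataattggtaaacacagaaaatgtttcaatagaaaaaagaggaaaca
Prg3 holds 2 matches and Il5ra 1 upstream of the start. Each of the 4 Ear windows holds 1 match just after the start, and Epx holds none. GATAA occurs in 25.4% of 32851 RefSeq promoter windows of this length. The letters GAGGAA, a core bound by PU.1, were found once in Il5ra and in none of the other 6 windows (28.3% of all windows), and TTGCNNAA, a core of many C/EBP sites, once each in Ear1, Ear2 and Ear10 (10.8% of all windows). Both strands were searched and no match of one motif overlapped a match of another in these genes. The Ear1 and Ear2 windows were identical at 97% of aligned positions, and Ear1 and Ear6 at 80.7%. The RefSeq starts of Ear1, Ear6, Ear10 and Il5ra are not the ends of their rows in the authors' table. Positions before or after the start refer to the RefSeq starts. A match here is a run of letters and not a measured site of binding.

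Total gene counts ran from 34034251 to 48708383 per library. In NR-2 the single row AY036118 held 32.9% of all counts, against 0.321% to 5.61% elsewhere, so its other genes had less depth. The defining genes of eosinophils were present in every library: Prg2 with 8175 to 15056 counts, Epx with 1855 to 3158 and Siglecf, a surface lectin of mouse eosinophils, with 171 to 299. Counts were scaled by the trimmed mean of M-values (TMM) to counts per 1000000 (CPM) and tested with edgeR's quasi-likelihood test, adjusted over all 18757 genes that passed a filter on low counts. A gene was called at an adjusted p under 0.05. By this rule 7.80% of tested genes were called, 4.56% higher and 3.24% lower in radiated femur, and the groups did not overlap for 25.9%.

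Messenger RNA of 3 eosinophil granule genes, Prg2, Epx and Ear1, fell in radiated femur to between 0.609 and 0.684 of the level in the opposite leg, and no change was called for the interleukin-5 receptor. Of the 8 genes 7 were tested, and Ear10 had too few counts. The calls make up 3 of 7, beside the 3.24% of all tested genes called lower, and no gene of the set was called higher. The other granule genes tested, Prg3, Ear2 and Ear6, had negative log2 fold changes (radiated minus non-radiated) that were not called, and Il5ra had a positive one. The median over the 7 was -0.55, against 0.00 over all tested genes. The groups did not overlap for the 3 called genes, beside 25.9% of all tested genes. For the sum of all Ear rows, taken because reads can move between copies, the groups overlapped. In bulk tissue, fewer eosinophils and less RNA per eosinophil cannot be told apart. The plot of values by library shows each gene.

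**Figure D1:**
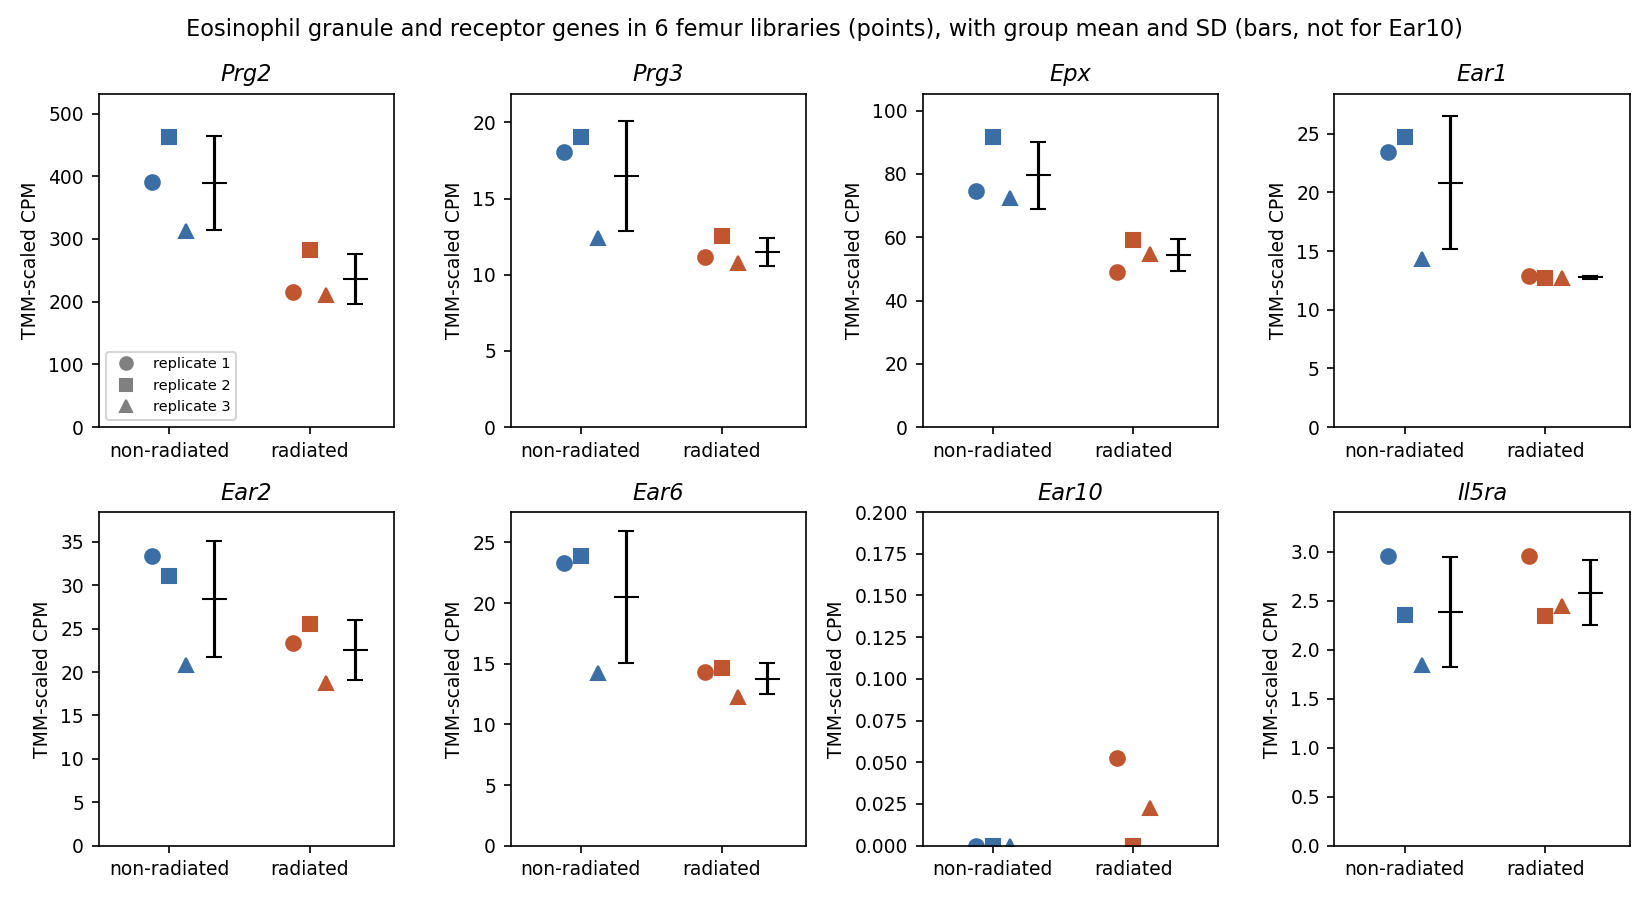
TMM-scaled CPM (linear axes from 0) of the 8 genes in the 3 non-radiated (blue) and 3 radiated (orange) libraries, with marker shape for the replicate number and bars for mean and SD, except for Ear10. Prg2, Epx and Ear1 do not overlap between groups, NR-3 lies near the radiated libraries for Prg3 and the Ear genes, and Il5ra overlaps fully.

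Prg2 encodes major basic protein, the main component of the crystalline core of the granule (ENSMUSG00000027073, chromosome 2, 84980461 to 84983632, mm10). It was at 391, 463 and 312 CPM in NR-1, NR-2 and NR-3 and at 216, 282 and 211 CPM in R-1, R-2 and R-3. Every radiated library was below every non-radiated one. The means were 389 ± 75.1 and 236 ± 39.5 CPM (SD, n = 3 each), the level fell by 39.1%, and the log2 fold change was -0.72 (standard error 0.15, adjusted p 0.0201 by edgeR). The call was lost without NR-1 (adjusted p 0.0667) or NR-2 (0.0595) and without R-1 (0.0844) or R-3 (0.0529), with log2 fold changes between -0.86 and -0.59 over the fits that each left out a library. Over all settings its adjusted p ran from 0.000225 to 0.207.

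Epx encodes eosinophil peroxidase, the haem enzyme that makes hypobromous acid and marks this cell type closely (ENSMUSG00000052234, chromosome 11, 87864000 to 87875536). It was at 74.8, 91.7 and 72.3 CPM in the non-radiated libraries and at 49.0, 59.1 and 54.8 CPM in the radiated ones. The groups were separate, with the highest radiated value below the lowest non-radiated value. The means were 79.6 ± 10.5 and 54.3 ± 5.08 CPM (SD, n = 3 each), a level that fell by 31.6%, with a log2 fold change of -0.55 (standard error 0.10, adjusted p 0.0105 by edgeR). This call was kept in all 6 fits that each left out a library and in 13 of 14 alternatives. It was lost with scaling by library totals alone, where AY036118 enters the scaling (log2 fold change -0.33, adjusted p 0.560).

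Prg3 encodes the homologue of major basic protein and lies beside Prg2 (ENSMUSG00000027072, chromosome 2, 84988215 to 84993886). The coding sequences of the pair are identical at 64.1% of aligned positions. Prg3 was at 18.1, 19.0 and 12.4 CPM in the non-radiated and 11.1, 12.5 and 10.8 CPM in the radiated libraries. NR-3 was below R-2, so the groups overlapped. Its log2 fold change was -0.52 (standard error 0.15, adjusted p 0.0781 by edgeR). With the replicate number as a block, which compares libraries of the same number, it was called (-0.50, adjusted p 0.0297), as it was without NR-3 (-0.70, adjusted p 0.00667), with no filter on low counts (0.0166) and by DESeq2's Wald test (0.00639).

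The Ear genes encode small secreted ribonucleases related to human eosinophil cationic protein, and mouse strains carry many copies. Ear1 (ENSMUSG00000072601, chromosome 14, 43818765 to 43875517) was at 23.4, 24.7 and 14.3 CPM in the non-radiated and 12.9, 12.7 and 12.7 CPM in the radiated libraries. NR-1 and NR-2 were high, and NR-3 was only just above the radiated ones. The level fell by 38.4%, with a log2 fold change of -0.70 (standard error 0.18, adjusted p 0.0442 by edgeR). The call of Ear1 was lost without NR-1 (adjusted p 0.149) or NR-2 (0.138) and without R-1 (0.122), R-2 (0.0861) or R-3 (0.0873). It was also lost with limma-voom (0.0853) and with library totals alone (0.305). The change was larger without NR-3 (-0.92, adjusted p 0.000593). The row of Ear1 spans the rows Ear-ps12, Ang-ps2 and Ear-ps9.

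Ear6 (ENSMUSG00000062148, chromosome 14, 51853699 to 51854643), the tested Ear gene least open to shared reads, was at 23.3, 23.9 and 14.3 CPM in the non-radiated and 14.3, 14.6 and 12.3 CPM in the radiated libraries. Again NR-3 sat among the radiated values. Its log2 fold change was -0.57 (standard error 0.18, adjusted p 0.0914 by edgeR). It was called with the replicate block (-0.55, adjusted p 0.0207), without NR-3 (-0.79, adjusted p 0.00357), with no filter on low counts (0.0139) and by DESeq2's Wald test (0.00409).

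Ear2 (ENSMUSG00000072596, chromosome 14, 44102654 to 44103534), whose transcripts are also known from monocytes, was at 33.4, 31.1 and 20.8 CPM in the non-radiated and 23.4, 25.5 and 18.8 CPM in the radiated libraries. The groups overlapped. Its log2 fold change was -0.33 (standard error 0.17, 95% interval -0.72 to 0.06, adjusted p 0.322 by edgeR), and it was called in 1 of 14 alternatives, the fit without NR-3 (-0.52, adjusted p 0.0452). Ear10 (ENSMUSG00000090166, chromosome 14, 43922720 to 43923559) had 0 counts in each non-radiated library, which allows up to 0.0708 to 0.120 TMM-scaled CPM there, the level of 3 counts in each library, and 2, 0 and 1 counts in the radiated libraries. This limit covers counting error only, and a difference in Ear10 was not detectable at this depth.

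Because reads can move between the copies, the Ear rows were also summed. The 14 rows named Ear held 2935, 2003 and 2100 counts in the non-radiated and 1924, 2842 and 1960 in the radiated libraries, which is 80.5, 80.0 and 49.6 CPM against 50.8, 53.2 and 43.9 CPM. In the sum NR-3 was below R-1 and R-2, so the groups overlapped, as they did for Ear2 and Ear6 but not for Ear1. The sum was not tested. Ear1, Ear2 and Ear6 held 99.5% of these counts. Of the other 11 rows 5 were at 0 in every library, and no single count among them was above 12.

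Il5ra encodes the alpha chain that gives the interleukin-5 receptor its specificity (ENSMUSG00000005364, chromosome 6, 106711975 to 106745109), and it is made by committed eosinophil progenitors, mature eosinophils and some B cells. It was at 2.96, 2.36 and 1.84 CPM in the non-radiated and 2.96, 2.34 and 2.44 CPM in the radiated libraries, from 59 to 125 counts. The values of the groups lay over one another. Its log2 fold change was 0.11 (standard error 0.20, 95% interval -0.34 to 0.57, adjusted p 0.810 by edgeR), it was called in none of 14 alternatives (lowest adjusted p 0.501), and its sign turned without NR-3 (-0.06). The interval runs from a lower to a higher level in radiated femur, so it does not show that Il5ra was the same in both.

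Libraries of the same number were also compared one to one, since the deviations from group means went together by number. All 6 tested granule genes were lower in the radiated library of all 3 pairs, as were 19.6% of all tested genes. The granule genes share these 3 pairs of libraries, so they are not replicates of one another. For Prg2 the log2 differences were -0.86, -0.71 and -0.56 in pairs 1, 2 and 3. For Epx they were -0.61, -0.63 and -0.40. Ear1 had -0.86, -0.96 and -0.17, and Ear2 had -0.51, -0.28 and -0.15, so pair 3 gave the smallest difference for each of these genes. Il5ra had -0.0018, -0.0091 and 0.41. With the block 5 of the 7 genes were called lower, Prg2, Prg3, Epx, Ear1 and Ear6, beside 3.39% of all tested genes called lower in the same fit.

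Levels were set side by side per kilobase of gene length. Prg2 stood highest in the non-radiated group at 464 ± 89.6 CPM per kilobase (SD, n = 3) and ranked 92 among 18757 tested genes over all libraries. Ear2 followed at 39.5, Epx at 29.1, Ear1 at 28.5, Ear6 at 21.7 and Prg3 at 17.4, all on the same per-kilobase scale, and these 5 neighbours overlapped one by one in the non-radiated libraries. Il5ra was lowest at 1.40 and apart from Prg3. In the radiated group the order was the same, from 282 ± 47.1 for Prg2 through 31.4 for Ear2, 19.8 for Epx, 17.5 for Ear1, 14.5 for Ear6 and 12.1 for Prg3 to 1.51 for Il5ra, and only Ear6 and Prg3 overlapped as neighbours.

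The plot of fitted changes sets the granule genes beside other genes of eosinophil biology, in lists chosen with earlier results of these data known.

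**Figure D2:**
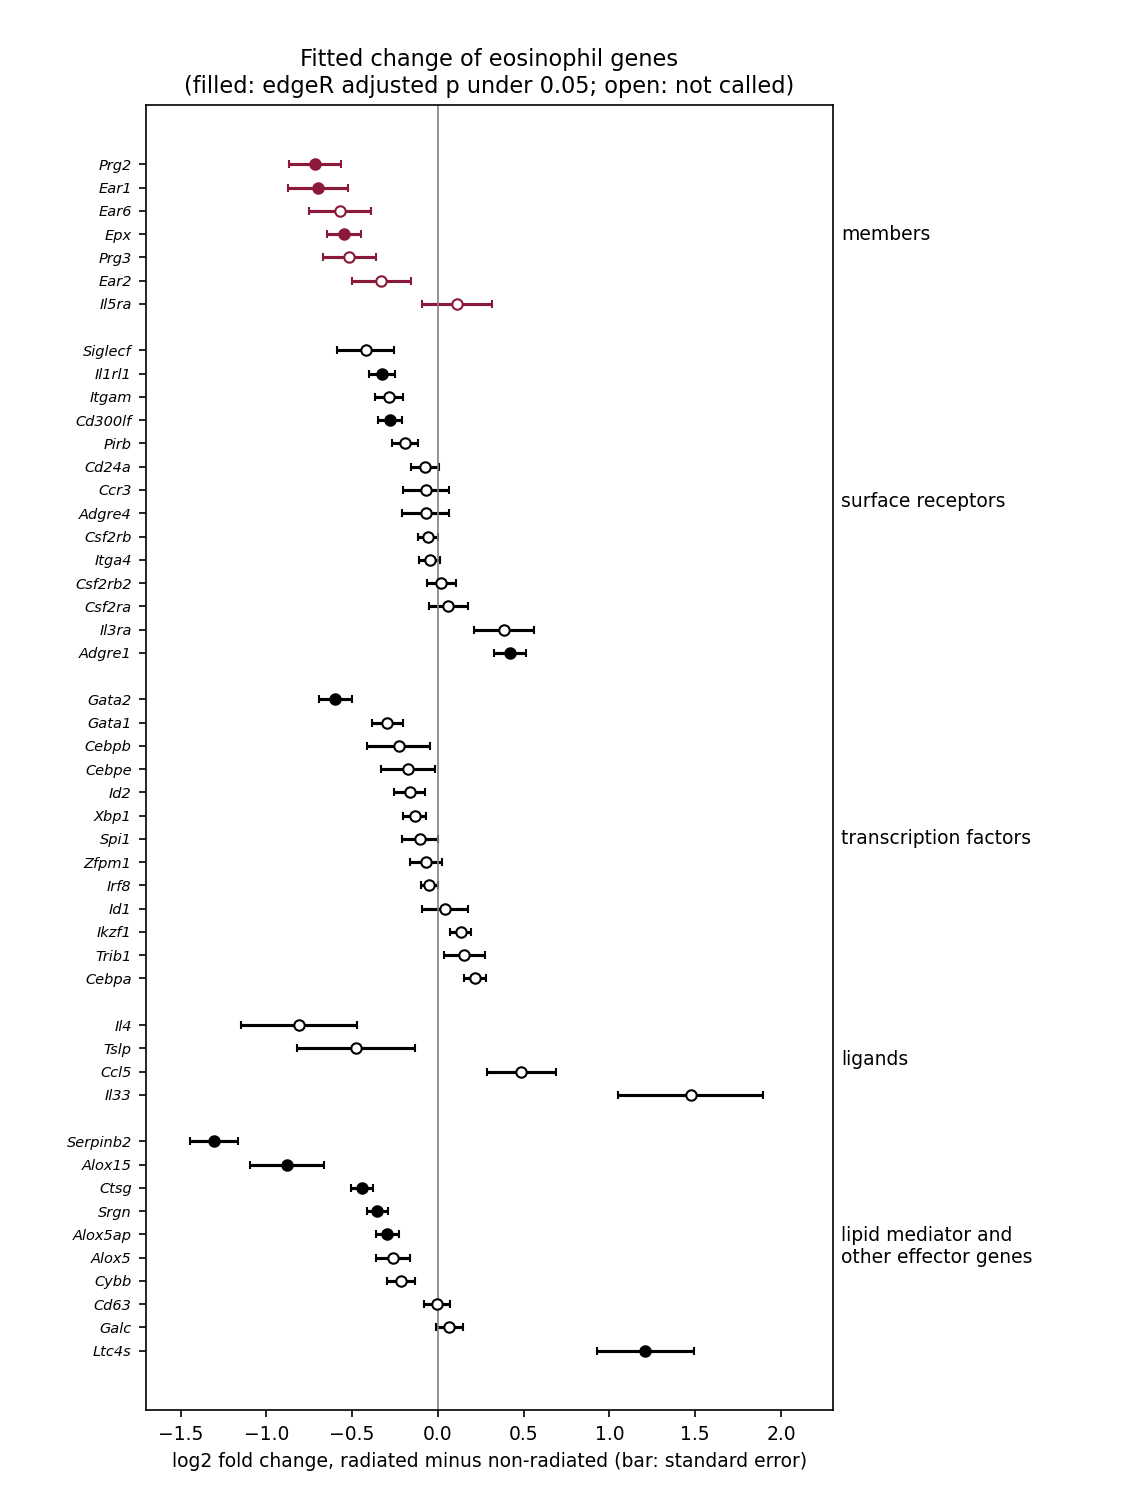
Fitted log2 fold change (x axis, radiated minus non-radiated, bars show the standard error) of the 7 tested genes (dark red) and of tested genes for eosinophil surface receptors, transcription factors, ligands and effectors (black), filled where called. The granule genes lie between -0.72 and -0.33, and most surface receptors lie closer to 0.

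Among surface receptors known from eosinophils, 14 of 16 listed genes were tested, with a median log2 fold change of -0.07. Il1rl1, the interleukin-33 receptor, and Cd300lf, an inhibitory receptor of myeloid cells, fell by 0.32 and 0.28 on the log2 scale (edgeR adjusted p 0.0319 and 0.0404). Adgre1 (Emr1 in the authors' table), the macrophage antigen F4/80 that eosinophils also carry, rose by 0.42 (edgeR adjusted p 0.0278). None of these is specific to eosinophils. The 3 calls in this list were not stable: without NR-2 or R-1 none of the list was called, although 6 genes of the list had an unadjusted p under 0.05 with all libraries. The adjusted p of Il1rl1 was 0.0826 and 0.116 in those fits, and 0.107 and 0.0679 without NR-1 and R-3. Cd300lf was at 0.0671 and 0.122, and at 0.0803 and 0.0935 without R-2 and R-3. Adgre1 was at 0.0823 and 0.106, and at 0.0587 and 0.0525 without NR-3 and R-2. Cd24a, Itga4 and Itgam, the most abundant uncalled genes of the list, had log2 fold changes of -0.08, -0.05 and -0.29.

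Closest to the eosinophil itself in that list are Ccr3, the eotaxin receptor, and Siglecf, both singled out after their values were seen. Ccr3 was at 35.3, 29.5 and 22.8 CPM in the non-radiated and 28.0, 28.3 and 27.1 CPM in the radiated libraries. Its radiated values lay inside the non-radiated range, with a log2 fold change of -0.07 (standard error 0.13, adjusted p 0.823 by edgeR). Siglecf was at 6.42, 7.43 and 6.09 CPM in the non-radiated and 5.42, 5.60 and 3.83 CPM in the radiated libraries. Those groups did not overlap, but the log2 fold change of -0.42 was not called (standard error 0.17, adjusted p 0.176 by edgeR). Csf2rb, the beta chain that Il5ra pairs with to signal, was not called, at -0.06 (edgeR adjusted p 0.652).

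Whether the granule genes changed apart from the receptors was tested on ratios of CPM within each library, chosen after the values were seen, with a two-sided exact permutation test whose 20 labelings can give no p below 0.1. The ratio of Epx to Ccr3 was 2.12, 3.10 and 3.17 in the non-radiated and 1.75, 2.09 and 2.02 in the radiated libraries. These groups did not overlap, and the mean log2 ratio differed by -0.50 (exact permutation p 0.1, Benjamini-Hochberg adjusted 0.4 over 8 ratios). Epx to Il5ra was 25.2, 38.9 and 39.3 against 16.6, 25.3 and 22.4, with a log2 difference of -0.68 and an overlap between NR-1 and R-2 (exact permutation p 0.2, adjusted 0.4). Epx to Siglecf differed by -0.11 (exact permutation p 0.7, adjusted 0.7). Within same-numbered pairs 1, 2 and 3 the log2 ratio of Epx to Il5ra was lower in radiated femur in each pair, at -0.61, -0.62 and -0.81. The pairs of Epx to Ccr3 were at -0.28, -0.57 and -0.65, also of 1 sign. For both, the exact sign-flip permutation over 3 pairs gave its smallest possible two-sided p, 0.25 (adjusted 0.4 over 8 ratios). Epx to Siglecf differed in sign between pairs, with -0.36, -0.22 and 0.27. Neither exact test can reach 0.05 with these libraries, so the p-values do not decide whether these ratios differ.

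Within the granule set, Ear1 to Ear2 was 0.700, 0.796 and 0.690 in the non-radiated and 0.552, 0.498 and 0.678 in the radiated libraries, a ratio open to shared reads. The groups were apart by a narrow margin (log2 difference -0.35, exact permutation p 0.1, adjusted 0.4). Prg2 to Epx and Prg2 to Prg3 differed by -0.16 and -0.21, with overlap (exact permutation p 0.3 and 0.2, adjusted 0.4 each).

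All 13 listed transcription factors of eosinophil development were tested, 1 was called, and the median log2 fold change was -0.10. Gata2, which acts in progenitors and in the mast cell and basophil lineages, was at 14.1, 16.0 and 15.7 CPM in the non-radiated and 9.30, 10.6 and 10.4 CPM in the radiated libraries. It fell by 0.60 on the log2 scale (standard error 0.09, adjusted p 0.00542 by edgeR) and kept its call in each fit that left out a library. Gata1, the factor the eosinophil lineage depends on and one that red cell and platelet precursors express strongly, had a log2 fold change of -0.29 with no overlap between groups (standard error 0.09, adjusted p 0.0902 by edgeR, with the replicate block 0.0289). Cebpe, the factor of granulocyte maturation, was not called at -0.17 (edgeR adjusted p 0.595), nor were the abundant Ikzf1, Irf8 and Zfpm1, at 0.13, -0.05 and -0.07.

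Ligands that recruit or sustain eosinophils were scarce. Il5 itself had 0, 0 and 1 counts in the non-radiated and 1, 0 and 3 in the radiated libraries, and Il3 had 0 in every library. Of the 11 listed, 4 were tested and none was called by edgeR, with 3 at an unadjusted p under 0.05. Limma-voom called none. DESeq2's Wald test, and edgeR with no filter on low counts, each called 2 of the 11, Il33 and a ligand below the filter. Il33, an alarmin, had the highest log2 fold change, 1.47 (standard error 0.42, adjusted p 0.0683 by edgeR), from 20, 6 and 14 counts in the non-radiated and 20, 65 and 63 in the radiated libraries, and it was called without R-1 (0.0272). Ccl5 was at 0.49 (adjusted p 0.203 by edgeR), Il4 at -0.81 (0.203) and Tslp at -0.48 (0.485). The eotaxins were below the filter: Ccl11 had 0, 0 and 2 counts against 5, 52 and 3, and Ccl24 had 6, 2 and 5 against 11, 38 and 7. In both, R-2 stood far above the rest, and this is also the library with the most muscle transcripts.

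Of 10 effector genes, all tested, 5 were called lower and 1 higher, with a median log2 fold change of -0.28. Alox15, a lipoxygenase abundant in eosinophils, was at 17.6, 22.0 and 12.5 CPM in the non-radiated and 7.69, 11.9 and 8.60 CPM in the radiated libraries. It fell by 0.88 on the log2 scale (standard error 0.22, adjusted p 0.0398 by edgeR), a call lost without NR-1 (0.112) or NR-2 (0.123) and without R-1 (0.135) or R-3 (0.0942). Serpinb2, a protease inhibitor of myeloid cells, fell by 1.31 (standard error 0.14, adjusted p 0.000729 by edgeR) and was called in all 14 alternatives. Ctsg, a serine protease of neutrophil granules that also stands in the neutrophil list, and Srgn, the proteoglycan that packs granule contents in many blood cells, fell by 0.44 and 0.35 (edgeR adjusted p 0.00380 and 0.00916). Alox5ap, which presents arachidonic acid to 5-lipoxygenase, fell by 0.30 (edgeR adjusted p 0.0280), and was not called without NR-1 (0.0700) or NR-2 (0.0826) or R-1 (0.0628) or R-3 (0.0501). Ltc4s, the leukotriene C4 synthase, went the other way and rose by 1.21 from a mean of 0.885 to 2.10 CPM (standard error 0.28, adjusted p 0.0319 by edgeR). Its call was lost without NR-1 (0.0982) or NR-2 (0.0728) and without R-1 (0.0734) or R-2 (0.0807). Cybb, Cd63 and Alox5 were not called, at -0.21, -0.0044 and -0.26. The number called in this list was 3 without NR-1 or NR-2 or R-1, and 4 without R-3.

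Some genes of other granule-bearing cells were called lower as well. Of 13 tested basophil and mast cell genes 7 were called lower and 1 higher. Their median log2 fold change was -0.39, and 4 were positive. The higher one was Tpsb2, a tryptase of tissue mast cells at 0.0661 ± 0.0491 against 0.341 ± 0.0407 CPM (SD, n = 3 each). It had 2, 3 and 1 counts in the non-radiated and 13, 16 and 17 in the radiated libraries. Its call was lost by DESeq2's Wald test and without NR-1, NR-3, R-1 or R-3. Other scarce mast cell genes also had higher means in radiated femur. They were Cma1 (log2 fold change 1.29, edgeR adjusted p 0.129) and, below the filter, Mcpt4, Mrgprb2 and Tpsab1. Prss34, a basophil protease named after its value was seen, fell by 0.60 on the log2 scale (edgeR adjusted p 0.00203), and the abundant Kit and Hdc fell by 0.40 and 0.32 (0.00454 and 0.0107), while Il4ra was not called at 0.16. The number called in either direction was 5 without NR-1 or NR-2 or R-3, and 2 without R-1. Summed over the list, the level was 341 to 365 CPM in the non-radiated and 270 to 291 CPM in the radiated libraries. The ratio of Epx to Prss34 did not separate the groups, with a log2 difference of 0.06 (exact permutation p 0.7, adjusted 0.7).

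Of 7 genes of early neutrophil granules 2 were called lower (median -0.38), and of 12 later ones 3 (median -0.32), with none higher in either list. Mpo, Elane and Fcnb were at -0.38, -0.43 and -0.27 (edgeR adjusted p 0.0512, 0.0683 and 0.113). S100a9, Ngp and Ltf were at -0.50, -0.28 and -0.29 (edgeR adjusted p 0.0627, 0.140 and 0.173). Without NR-1, 5 early genes were called. With the replicate block 4 early and 5 later genes were called, by DESeq2's Wald test 6 and 10, and with no filter on low counts 6 and 6. The later list had 1 call without NR-1 or NR-2 or R-1 or R-3. Epx to Mpo differed by -0.17 in log2 ratio, with overlap (exact permutation p 0.3, adjusted 0.4).

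Of 12 monocyte and macrophage genes 4 were called, all higher, with a summed level of 1273 to 1429 CPM in the non-radiated and 1502 to 1758 CPM in the radiated libraries. The median of the list was 0.28. Megakaryocyte genes, with a median of -1.46 and at 1029 to 1095 against 345 to 412 CPM, were called lower in 8 of 8. All 8 bone genes had negative log2 fold changes, with a median of -0.56 beside -0.55 for the 7 eosinophil genes, and 2 were called lower. The number called was 5 with the replicate block and by DESeq2's Wald test, 4 without NR-2, and 1 without NR-1, NR-3, R-2 or R-3. Their summed level was 7974 to 12095 against 5838 to 7570 CPM. The 12 skeletal muscle genes had a median of 2.28 and were at 173 to 354 against 785, 2557 and 202 CPM in R-1, R-2 and R-3. None of the muscle genes was called by edgeR as reported, with all 12 at an unadjusted p under 0.05 (0 called by DESeq2's Wald test and by limma-voom, 1 without R-1, 10 with the replicate block, 10 without R-3, 12 with no filter on low counts and 12 with library totals alone). The part of these shifts in the granule result was not tested. Without R-2, the one richest in muscle, Prg2 was at -0.86, Epx at -0.61 and Ear1 at -0.69, against -0.72, -0.55 and -0.70 with it. That fit still holds R-1, at 785 CPM of muscle genes, so it does not take the muscle difference away.

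**Figure D3:**
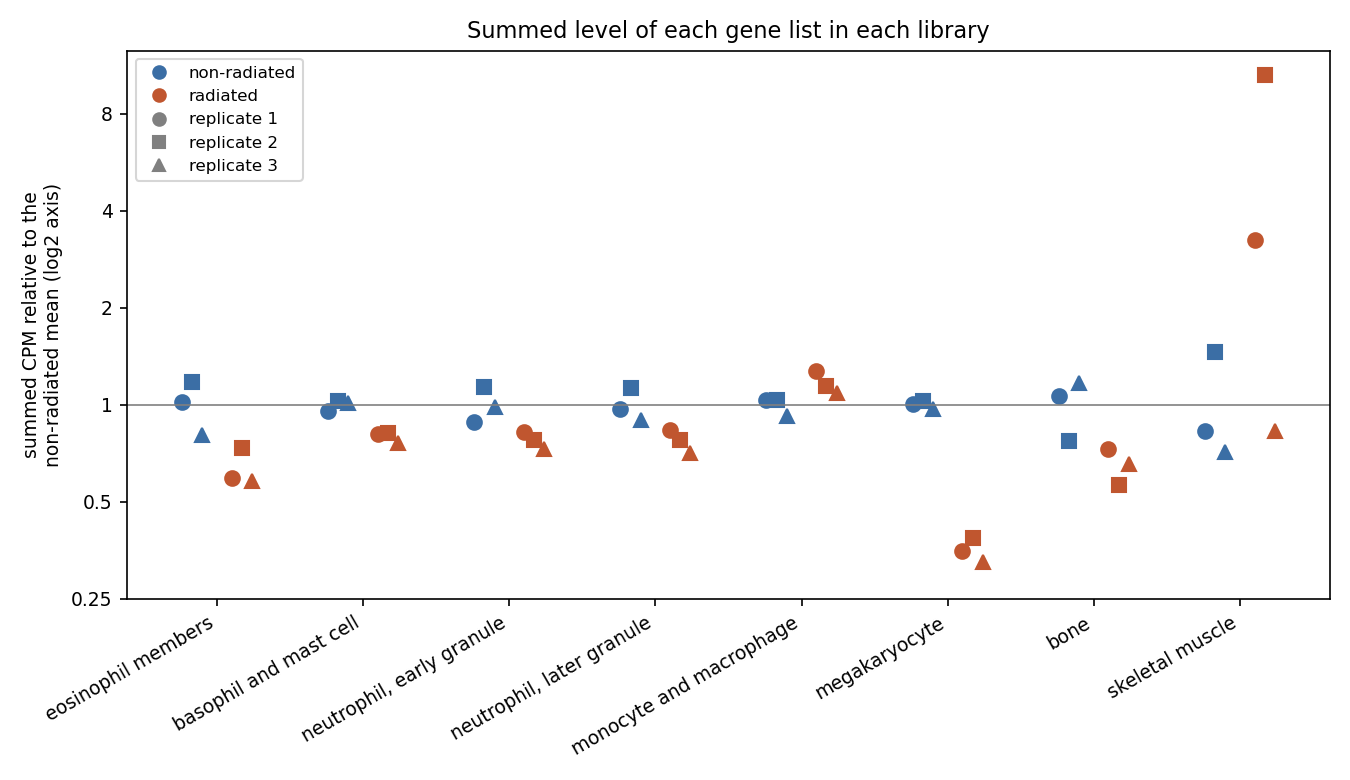
Summed CPM of each gene list relative to its non-radiated mean (log2 axis) in each library, with colour for the group and marker shape for the replicate number. The eosinophil genes, basophil and mast cell genes and both neutrophil lists lie lower in the radiated libraries, by far less than the megakaryocyte genes, and muscle genes are high in R-1 and R-2. Abundant genes weigh most in a sum, and Prg2 made up 389 of the mean 557 CPM of the eosinophil genes in non-radiated femur.

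Outside the set 15572 tested genes averaged 1 CPM or more and had a count in every library, and those with a pattern over the 6 libraries most like that of Epx were Gm27211, 4933440M02Rik, Ms4a2, Ttll1, Daam1, Igfbp3, Gpr128 and Slc14a1, with root mean square differences of centred log2 CPM from 0.0620 to 0.0809. Ms4a2 encodes a chain of the high-affinity IgE receptor and is in the basophil and mast cell list. Within the set Prg2 was nearest to Epx (0.148, Pearson r 0.96), then Prg3 (0.158, r 0.88), and Il5ra was farthest (0.439, r -0.32). Placed among the 15572 genes outside the set, Prg2 would rank 131 in likeness to Epx. Prg3 would rank 185, Ear1 1181, Ear6 1261 and Ear2 3143, so many genes outside the set were more like Epx. Likewise, the genes most like Il5ra were Gm26512, Gm16340, Gm29094, Ms4a6b, Gm20732, Mmp27, Wdr47 and Map10, from 0.0384 to 0.0865. These values describe 6 libraries that share the group difference and the scaling.

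The calls of the set depended on which library was left out, as the plot of adjusted p by setting shows. Without NR-3, 6 of the 7 genes were called, all but Il5ra, beside 3.17% of tested genes called lower in that fit. Without NR-1 or NR-2 or R-1 or R-3 only Epx was called, and without R-2, Epx and Prg2. In those 5 fits 1.71% to 2.42% of tested genes were called lower.

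**Figure D4:**
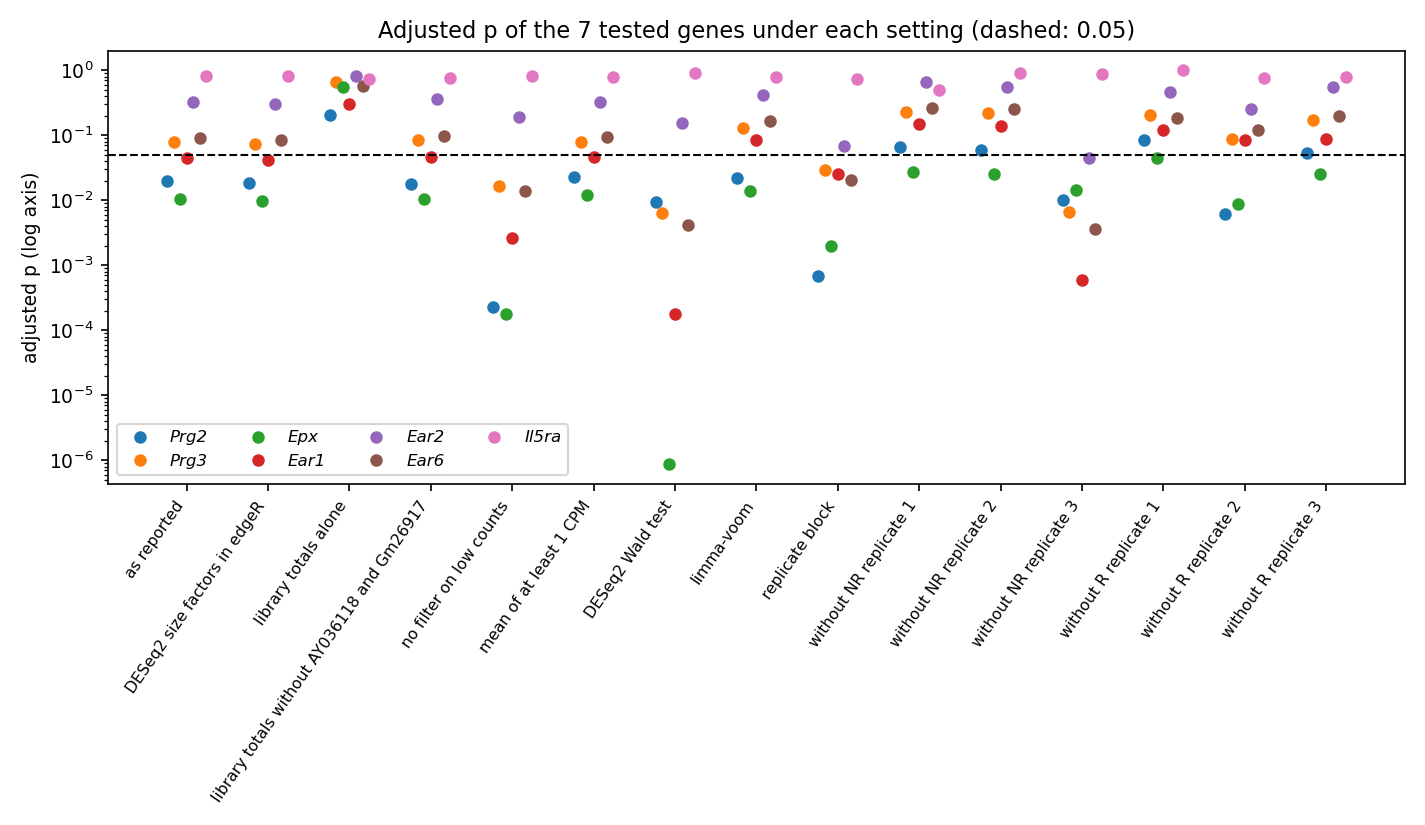
Adjusted p (log axis) of the 7 tested genes as reported and under 14 alternatives, with a dashed line at 0.05. Epx is under the line everywhere except with library totals alone, Il5ra is above it throughout, and all 7 are above it with library totals alone.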

How the data were processed

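RNA was measured in 6 femur libraries; per the labels' protocols muscle was removed, total RNA was isolated on silica columns and a stranded mRNA kit was used. The submitters' processing notes name bcl2fastq, STAR 2.5.2b, Subread and featureCounts and the build mm10. The annotation, filters and the use of strand are not given in the sources used here. Raw counts per gene were deposited by the authors as whole numbers, and coordinates are printed as their table gives them. The authors also deposited RPKM values, which were not used.

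Tests used edgeR 4.0.16 under R 4.3.3 (filterByExpr with a minimum count of 10 and a minimum total of 15, TMM, glmQLFit and glmQLFTest with the group as the only term, Benjamini-Hochberg adjustment over 18757 genes). The SE is the size of the log2 fold change divided by the square root of F. Alternatives, 14 in all, used DESeq2 1.42.0, limma 3.58.1, other scalings and filters, a replicate block and leaving out each library. Replicate pairs within a group differed by more than sampling noise (chi-square per degree of freedom 16.6 to 580, AY036118 included). NR-2 gave 580 with NR-1 and 492 with NR-3, and the remaining pairs gave 16.6 to 121. Same-numbered libraries deviated together across genes (r 0.166, 0.277 and 0.187), and differently numbered ones had negative r (-0.170 to -0.00824). Deviations from a group mean cancel within the group, so the negative values go with the positive ones and are no separate support. From the same-numbered values, numbers were taken to pair libraries in the block and in one-to-one comparisons. The labels do not state this pairing. In simulated counts for 18757 genes, 77% of 2-fold and 95.8% of 4-fold changes were recovered. The tested granule genes were at 0.609 to 0.796 of the non-radiated level, smaller changes than those simulated. Recovery of changes of that size was not tested.

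The members and lists were chosen with earlier results of these data known. Of 155 list entries 143 were found, 2 by gene ID. Named genes were all members, the called genes of the eosinophil lists, up to 3 uncalled ones per list by level, up to 3 per other list, and the 8 most like Epx or Il5ra. Shared windows, identities (Biopython 1.88) and motifs were computed from GENCODE M21 and RefSeq sequences.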

Additional observations from a re-analysis of the deposited data

How the results depend on the processing

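Of the 7 tested genes 3 were called. The number was 0 with library totals alone (2 at an unadjusted p under 0.05 in edgeR) and 5 with no filter on low counts. It was 5 with DESeq2's Wald test, 5 with the replicate block, and 1 to 6 over the fits that each left out a library. Of all tested genes, 0.778% were called lower with library totals alone and 2.71% of 28798 with no filter. The share was 4.28% of 19849 with DESeq2's Wald test and 3.39% with the block. It was 1.71% to 3.17% with a library left out, against 3.24% as reported. The block, a pairing by replicate number, changed the calls of Prg3 and Ear6 and of no other member. Over all genes the number called was 764 to 1376 with a library left out, against 1463. Library totals alone moved the median over all genes from 0.00 to 0.19 (log2) and the share of calls that were higher from 58.5% to 85.4%. The 6 tested granule genes had a negative log2 fold change in all 14 alternatives. Signs that turned, all in genes not called, were those of Il5ra, Ccr3 and Cd63 when a library was left out (ranges -0.0598 to 0.305, -0.229 to 0.0886 and -0.0781 to 0.0674), and under library totals alone Cd24a (0.12), Itga4 (0.15), Irf8 (0.14), Zfpm1 (0.13), Cd63 (0.18), Ccr3 (0.12), Csf2rb (0.14) and Cebpe (0.0329). Cd63 also turned without AY036118 and Gm26917 in the totals (0.0252). Il5ra, with 59 to 125 counts per library, limits what can be seen of the receptor, and the cause of these dependences was not tested.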
